A study of Mus musculus with 6 samples.

Results

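The genes described here are the mouse olfactory receptor genes whose symbol is Olfr with a number from 1 to 400, chosen by symbol alone. They are protein receptors of the nose, and were taken as genes without a known role in most cells of the tissues sampled. Of the 288 such genes in the RefSeq gene table, 95 had a row in at least 1 section of the series, against 19378 genes of any kind. All 95 had a row in the control paw, and the other 193 had none in the tables used here and were not analysed.

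Histone marks were mapped by position in 6 mouse tissue sections laid on barcoded DNA arrays, with 1 section for each combination of tissue, condition and mark. H3K27ac was profiled in decalcified, paraffin-embedded adult paw sections of 4 µm around the talus, 1 from an animal with collagen-induced arthritis at 42 days (943 spots) and 1 from a control labelled 42 days (554 spots). H3K4me3 was profiled in a 20 µm section of wild-type adult brain (1200 spots). Wild-type whole-body embryo sections of 16 µm at E11.5 were profiled for H3K27me3 (254 spots), H3K27ac (251 spots) and H3K4me3 (248 spots). The strain, the sex and the number of animals are not given in the labels, so whether the embryo sections share an animal is not known. With 1 section per group there is no spread between animals, so no test was made and every difference below describes these sections.

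Olfactory receptors are G protein-coupled receptors of the olfactory sensory neurons, and each such neuron transcribes a single receptor gene from 1 allele. In other cells the genes lie silent, mostly in clusters wrapped in constitutive heterochromatin carrying H3K9me3, a mark that was not profiled here. H3K4me3 marks promoters in use, H3K27ac marks active promoters and enhancers, and H3K27me3 marks genes held silent by Polycomb complexes. Some receptors also work outside the nose. Olfr78, for example, is known from blood vessels, kidney and the carotid body, and Olfr16 from sperm.

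The 4 receptors with the highest levels in any section were Olfr154, Olfr374, Olfr151 and Olfr172. The promoters of 3 of them are shown because the strongest single values below belong to these genes. They come from the RefSeq table of build GRCm38.p6, which gives 250 bases before the gene start and 50 after it. Each is written 5′ to 3′ on the gene's strand. Olfr154 has it at chr2:85664406-85664705 (minus strand), Olfr374 at chr8:72106790-72107089 (plus strand) and Olfr172 at chr16:58761191-58761490 (minus strand). Capitals mark every CG pair and every match, on either strand, to the motifs CCCNNGGG, TAATTA and TATAAA.
Olfr154: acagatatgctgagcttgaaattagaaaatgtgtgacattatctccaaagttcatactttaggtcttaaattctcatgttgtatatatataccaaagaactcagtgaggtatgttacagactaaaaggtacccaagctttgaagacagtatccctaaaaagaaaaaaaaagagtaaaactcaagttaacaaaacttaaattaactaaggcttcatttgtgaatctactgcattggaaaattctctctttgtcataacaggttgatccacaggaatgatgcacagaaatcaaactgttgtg
Olfr374: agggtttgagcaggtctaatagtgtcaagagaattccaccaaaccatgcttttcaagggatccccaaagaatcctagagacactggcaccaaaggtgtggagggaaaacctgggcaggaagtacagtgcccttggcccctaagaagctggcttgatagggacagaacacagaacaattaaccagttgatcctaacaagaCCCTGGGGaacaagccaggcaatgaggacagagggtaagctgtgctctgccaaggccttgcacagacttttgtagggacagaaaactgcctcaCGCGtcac
Olfr172: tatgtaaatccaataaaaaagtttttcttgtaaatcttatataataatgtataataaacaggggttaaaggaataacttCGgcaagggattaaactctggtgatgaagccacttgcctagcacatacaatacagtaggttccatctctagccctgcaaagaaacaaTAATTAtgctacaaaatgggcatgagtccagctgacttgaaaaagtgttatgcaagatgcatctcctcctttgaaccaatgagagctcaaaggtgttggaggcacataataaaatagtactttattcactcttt

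The Olfr154 stretch holds 0 CG pairs at a GC content of 32.7%, the Olfr374 stretch 2 at 50.7% and the Olfr172 stretch 1 at 35.3%. Across the 82 of 95 receptors matched to a promoter, the median was 1 CG pair and a GC content of 40.0%. For the 27025 promoters of the whole table these medians were 7 pairs and 52.7%. No CG pair at all was found in 24 of the 82 receptor promoters (29.3%), against 5.78% of all promoters in the table. The motif CCCNNGGG, a form of the site bound by early B cell factors, was found in 7 of 82 (8.54%, against 13.4% of all promoters). TAATTA, a homeodomain core, was found in 10 (12.2%, against 5.31%), and TATAAA, the TATA box core, in 19 (23.2%, against 14.2%). Other receptor promoters held the last 2 motifs more often and CCCNNGGG less often. In 151 promoters of Olfr1 to Olfr400 without a row, CCCNNGGG, TAATTA and TATAAA were found in 2.65%, 16.6% and 34.4%. In 707 promoters of Olfr numbers above 400 the shares were 2.55%, 19.9% and 44.8%. A match is a description of letters and says nothing of binding.

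The deposited values were quantile-normalised signals in which genes of equal count had been ranked by their row in the control paw's table, so reads per gene were recovered from the tied ranks. All levels below are recovered reads, given as a sum over the spots of a section, or relative to the section's mean over genes, or as the percentile rank of a gene among all genes of its section. Reads were not divided by gene length, and receptor genes are short, so a rank among other genes also carries length. Comparisons of the same genes between sections set equal lengths side by side. Length may still weigh differently under different marks, which was not tested. The sections held 403483 to 5981684 recovered reads. Intervals are exact 95% Poisson intervals on reads that carry no molecular identifier, and cover counting error only.

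The receptors carried few reads of every mark. In the arthritis paw the 27 receptors with a row held 39 to 733 reads, with a median of 142 against 274 for all genes. In the control paw the 95 receptors held 10 to 12712 reads, with a median of 49 against 142. The 29 receptors of the brain held 4 to 189 reads, with a median of 65 against 120. In every one of these sections the median receptor lay below the median gene.

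The embryo sections were far shallower. The 87 receptors with a row for H3K27me3 held 1 to 791 reads with a median of 4, against 14 for all genes. For H3K27ac, 90 receptors held 1 to 60 reads with a median of 4, against 12. For H3K4me3, 80 receptors held 1 to 37 reads with a median of 2, against 7. Most single receptors in the embryo therefore cannot be told from each other at this depth, since the interval of a count of 4 runs from 1.09 to 10.2.

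As ranks, the median receptor stood at percentile 19.8 in the arthritis paw, 12.2 in the control paw, 19.5 in the brain, 17.2 for embryo H3K27me3, 20.4 for embryo H3K27ac and 15.5 for embryo H3K4me3. Binomial intervals of these medians over genes ran from 14.1 to 35.0, 5.15 to 19.8, 7.66 to 34.0, 12.1 to 26.3, 14.4 to 25.6 and 15.5 to 24.3 in the same order. All 6 intervals share the range from 15.5 to 19.8. Below the section's median gene lay 24 of 27 receptors in the arthritis paw, 84 of 95 in the control paw, 27 of 29 in the brain, 72 of 87 for H3K27me3, 70 of 90 for H3K27ac and 68 of 80 for H3K4me3. The lowest 10% of all genes held 6, 46, 10, 21, 32 and 19 of them.

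**Figure D1:**
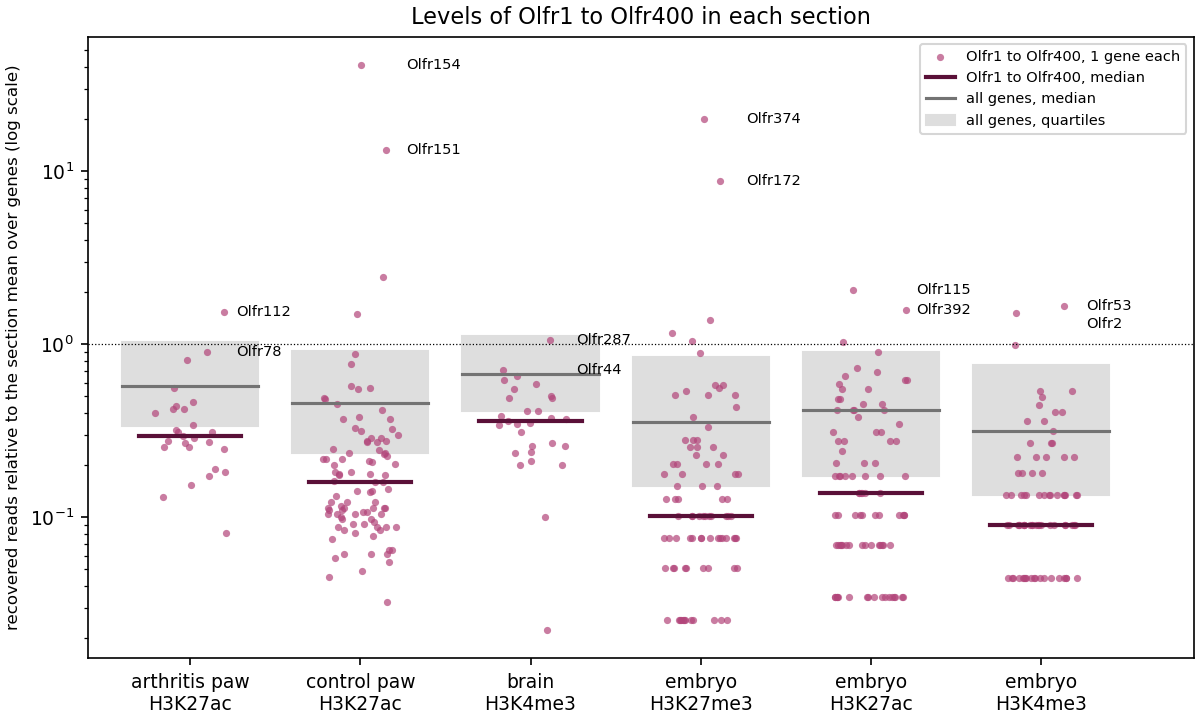
Recovered reads of each receptor gene relative to the mean over all genes of its section (log scale), for the arthritis and control paws, the brain and the 3 embryo sections. Points are single receptors, dark bars their medians, grey bars and boxes the median and quartiles of all genes. The receptors' medians lie at 0.296, 0.159, 0.362, 0.102, 0.138 and 0.0896 of the section mean from left to right, and Olfr154, Olfr151, Olfr374 and Olfr172 stand apart above the rest.

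Which receptors had a row at all differed between tables. The arthritis paw had rows for 11130 genes and the brain for 11345, and the receptors with such rows had more reads in the control paw. Receptors with a row in the arthritis paw held a median of 89 control paw reads, against 35 for those without. For the brain the medians were 88 and 35. Over all genes the same medians were 211 and 77 for the arthritis paw and 206 and 77 for the brain, so this is not particular to receptors. The ranks in these 2 sections thus describe the better covered receptors. For the 20 receptors with a row in all 6 sections, the median percentile was 20.8 in the arthritis paw, 38.1 in the control paw, 20.6 in the brain, 43.4 for H3K27me3, 48.7 for H3K27ac and 45.4 for H3K4me3. Ranked only among genes with a row in all 6 sections, the same 20 had medians of 16.1, 11.0, 14.04, 16.4, 23.3 and 22.1. These 20 are not a sample of the 95.

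Receptors with higher numbers and the vomeronasal receptors, which detect pheromones, stood as low. The 49 to 197 Olfr genes numbered above 400 had median percentiles of 16.9 in the arthritis paw, 7.61 in the control paw and 12.4 in the brain, and the 12 to 44 vomeronasal receptors 14.96, 5.40 and 14.2. In the 3 embryo sections both families had the same median as Olfr1 to Olfr400, since those medians are the same counts of 4, 4 and 2 reads. Genes of cytosolic ribosomal proteins, which every cell uses and which are also short, had medians of 38.2 to 43.0 over the 6 sections. The Hox genes, developmental regulators that carry Polycomb marks in many tissues, had medians of 71.9 to 85.2.

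**Figure D2:**
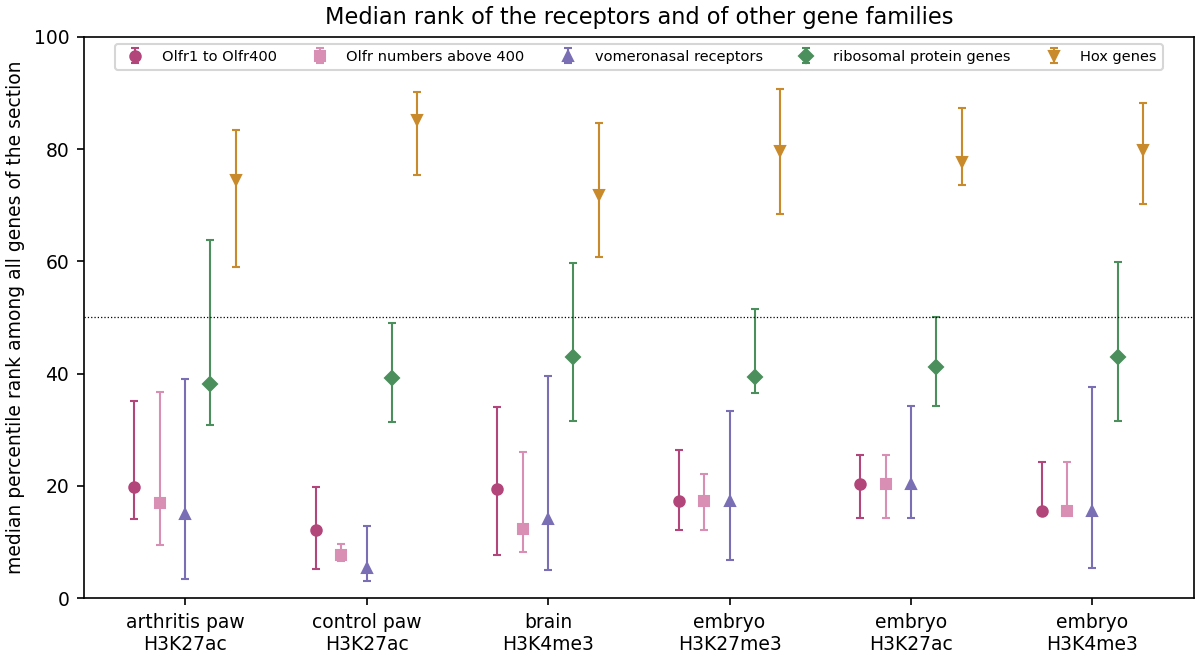
Median percentile rank among all genes of a section, with its binomial 95% interval over genes, for Olfr1 to Olfr400, Olfr numbers above 400, vomeronasal receptors, ribosomal protein genes and Hox genes. Olfr1 to Olfr400 lie between 12.2 and 20.4 in all 6 sections, the ribosomal protein genes between 38.2 and 43.0, and the Hox genes between 71.9 and 85.2.

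A few receptors stood far above the others. Above percentile 90 of all genes stood 7 of the 95 receptors, each in 1 section and 0 of them in more. Of these, Olfr115, Olfr151, Olfr154 and Olfr175 stood there for H3K27ac and Olfr53 for H3K4me3, marks of active genes. A silent state cannot be taken for granted for these genes in those sections, and whether they were active was not tested. Olfr172 and Olfr374 stood there for H3K27me3, the mark of silenced genes. RNA was not measured. In all, 15 receptors exceeded the section mean somewhere, 14 of them in 1 section only and Olfr287 in the brain and in embryo H3K27me3. In the control paw these were 4 of 95 receptors, against 4294 of all 19378 genes. For embryo H3K27me3 they were 5 of 87, against 3930 of 19046, and in the brain 1 of 29, against 3336 of 11345. Olfr115, Olfr154, Olfr175 and Olfr374 had a row in only 4 sections, which limits how often they could stand high.

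In the control paw Olfr154 held at least 12712 reads, at percentile 99.9, and at least 1 read in 547 of 554 spots. It had 6 reads for embryo H3K27me3, 19 for H3K27ac and 2 for H3K4me3, and no row in the arthritis paw or the brain. Olfr151, one of the best studied receptors of the mouse and a receptor for acetophenone, held at least 4124 reads in the control paw, at percentile 99.4 and in 516 spots. Its other values were 119 reads in the arthritis paw, 74 in the brain, 23 for H3K27me3, 12 for H3K27ac and 5 for H3K4me3. Both sums in the control paw are lower bounds, since many of their reads lie beyond the range in which counts could be read exactly. Together these genes held at least 71.2% of all receptor reads of that section.

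Next in the control paw came Olfr175 with 758 reads (705 to 814, percentile 93.3), which had 4, 3 and 2 reads in the embryo for H3K27me3, H3K27ac and H3K4me3. Olfr78 followed with 459 (418 to 503, percentile 86.9) and Olfr287 with 271 (240 to 305, percentile 73.8). Without the 2 leading genes, the mean level of the control paw's receptors was 0.237 of the section mean, against 0.807 with their lower bounds. These 2 genes were picked for their reads in this section, so a fall was fixed in advance.

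In embryo H3K27me3 Olfr374 held 791 reads (737 to 848, percentile 99.5) in 219 of 254 spots, against 12 for H3K27ac and 4 for H3K4me3. Olfr172 held 345 reads (310 to 383, percentile 98.6) in 182 spots, against 6 and 3. Outside the embryo, Olfr374 had 114 reads in the control paw and no row in the arthritis paw or the brain, and Olfr172 had 91 in the arthritis paw, 129 in the control paw and 65 in the brain. Together these genes held 62.8% of the receptors' H3K27me3 reads, and no other receptor of that section passed 54.

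The reads of each of these 4 genes were spread over the tissue rather than held by a spot. The spot with the most reads held 0.496% of the reads of Olfr154, 0.824% of Olfr151, 1.64% of Olfr374 and 2.03% of Olfr172. Variance over spots was 1.72, 1.37, 1.19 and 1.03 times that of Poisson draws at the spot depths, in the same order. For Olfr154 and Olfr151 the highest counts of a spot could not be read exactly. Their top shares and variances may therefore be too low.

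The other sections had smaller peaks. In the arthritis paw Olfr112 led with 733 reads (681 to 788, percentile 85.1), followed by Olfr78 with 435, Olfr30 with 391, Olfr44 with 269 and Olfr282 with 222. In the brain Olfr287 led with 189 reads (163 to 218, percentile 73.1), followed by Olfr44 with 128, Olfr187 with 118, Olfr78 with 111 and Olfr2 with 106. These brain values fall off gradually, and the intervals of the last 4 overlap.

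Embryo H3K27ac had Olfr115 at 60 reads (45.8 to 77.2, percentile 91.3), Olfr392 at 46, Olfr206 at 30, Olfr111 at 26 and Olfr18 at 21. Embryo H3K4me3 had Olfr53 at 37 (26.1 to 51.0, percentile 90.4), Olfr2 at 34, Olfr287 at 22, and Olfr20 and Olfr283 at 12 each. After Olfr374 and Olfr172, H3K27me3 had Olfr287 at 54, Olfr108 at 46 and Olfr18 at 41. Olfr115 and Olfr206, high for H3K27ac, had 1 read each for H3K27me3 and for H3K4me3.

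**Figure D3:**
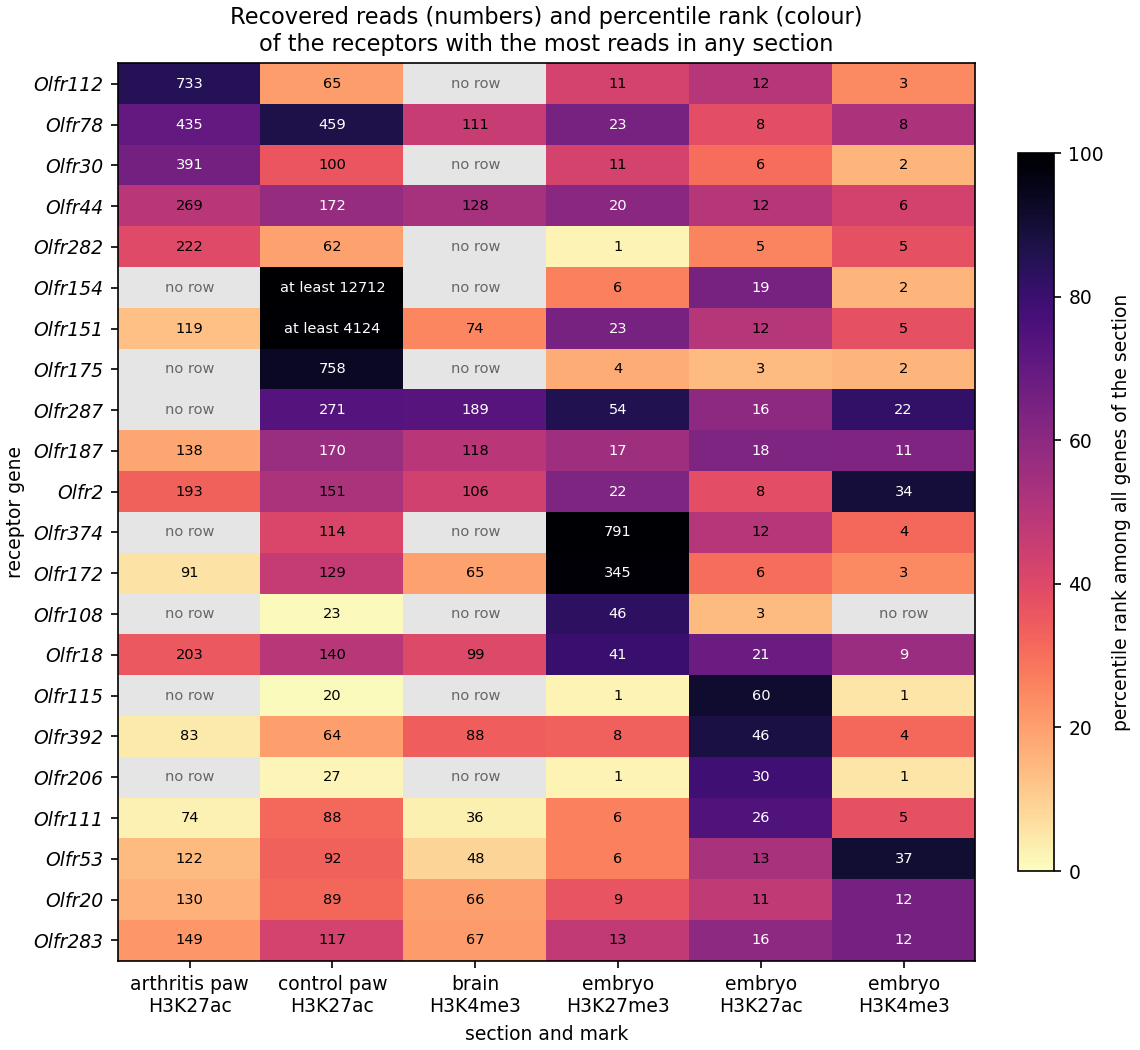
Recovered reads (numbers) and percentile rank among all genes (colour) of the receptors that are among the 5 with the most reads in any section, with sections as columns. Grey cells have no row in that table. Cells above percentile 90 lie in the control paw alone for Olfr154, Olfr151 and Olfr175, and in embryo H3K27me3 alone for Olfr374 and Olfr172.

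The receptor at the median was Olfr325 in the arthritis paw (142 reads) and Olfr172 in the brain (65). Olfr26 and Olfr330 shared it in the control paw (49 reads each). In the embryo several receptors share the median count, among them Olfr16 for H3K27me3 (4), Olfr155 for H3K27ac (4) and Olfr107 for H3K4me3 (2). Olfr172 was thus the median receptor in the brain and the second highest in embryo H3K27me3.

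Receptors known from work outside this series were followed whatever their values. Olfr78, the receptor of vessels and carotid body, was above the median receptor in all 6 sections, by 3.06, 9.37, 1.71, 5.75, 2.00 and 4.00 times in the arthritis paw, control paw, brain, H3K27me3, H3K27ac and H3K4me3. It held 435 reads in the arthritis paw, 459 in the control paw, 111 in the brain, 23 for H3K27me3, and 8 each for H3K27ac and H3K4me3. Olfr2, a receptor for octanal, held 193, 151, 106, 22, 8 and 34 reads in the same order, and its rank ran from percentile 33.1 in the arthritis paw to 89.3 for embryo H3K4me3. It too was above the median receptor everywhere. The same held for Olfr18, Olfr44, Olfr283, Olfr286 and Olfr288, so this trait is not particular to Olfr78 or Olfr2.

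Olfr16 held 35 reads in the control paw, 4 for H3K27me3, 17 for H3K27ac (9.90 to 27.2, percentile 61.5) and 4 for H3K4me3, with no row in the other sections. Olfr160, a close relative of Olfr151 that binds the same odorant, held 29 reads in the control paw and 2 for each mark of the embryo. In the control paw it stood at percentile 2.63, where Olfr151 stood at 99.4. Olfr43 held 45, 8, 8 and 3 reads in the control paw and for H3K27me3, H3K27ac and H3K4me3. Olfr15, Olfr17 and Olfr73 had no row in any section.

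Receptor genes form a large and diverse family in which some recent duplicates are near-identical, and how the authors' counting treated reads shared by such copies is not given in the sources used here. Counts of such duplicates are uncertain in that respect. Counts that a receptor shares with an adjacent gene were looked for through the gene order of RefSeq. Lypd9, next to Olfr30, held 409 reads in the arthritis paw and 104 in the control paw, within 5% of the 391 and 100 of Olfr30. In the control paw Olfr77 and Olfr866, Olfr313 and Olfr314, and Olfr315 and Fam183b also matched within 5%, and in the brain Olfr324 and 2210407C18Rik. Leaving such receptors out moved no median rank beyond its interval.

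The adjacent genes of other receptors named above were lower in some cases and higher in others. Olfr172 lies between Cldnd1, with 7 H3K27me3 reads, and Olfr173, with 3, against its own 345. Olfr112 had 733 reads in the arthritis paw and its neighbour Olfr111 had 74. Olfr154 had at least 12712 reads in the control paw and its neighbour Olfr1006 had 148. Olfr374 lies next to Tpm4, a tropomyosin gene of many cell types, for which at least 2648 reads were recovered for H3K27me3, 2049 for H3K27ac and 1617 for H3K4me3. Tpm4 was thus high for all 3 marks of the embryo, where Olfr374 was high for H3K27me3 alone.

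Position in a cluster went with small differences in level. Of the 95 receptors, 67 have an olfactory receptor on both sides, 25 on 1 side and 2 on neither, and 1 was not placed. In the control paw the 67 within clusters had a median of 41 reads, against 56 for the 27 with at least 1 other neighbour, and their quartiles (27 to 72.5, against 32.5 to 98.5) overlap. For H3K27me3 the medians were 4 and 5.5 reads, for H3K27ac 4 and 4, and for H3K4me3 2 and 3. In the arthritis paw they were 142 and 149, and in the brain 63 and 65.

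Across receptors with a promoter in the table, reads went up with promoter GC content in each section to a varying degree. Spearman's rho was 0.63 over 22 receptors in the arthritis paw, 0.35 over 82 in the control paw, 0.46 over 24 in the brain, 0.24 over 75 for H3K27me3, 0.10 over 78 for H3K27ac and 0.32 over 70 for H3K4me3. These points share a library and a base composition, and the values are descriptions. Olfr154, with the most reads of all, has 32.7% GC, below the median of 40.0%.

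Between the paws, the comparison asks whether H3K27ac at these genes differed in an inflamed joint. Ratios here are log2 ratios of levels relative to the section mean, after a pseudocount of 0.1 that shrinks the changes of low genes. The 27 receptors with a row in both had a median of 0.21 (0.08 to 0.50, a binomial interval over genes), arthritis over control, against 0.11 for all 11130 genes. Of these 27, 4 exceeded a log2 ratio of 1 and 1 lay below -1. Over all genes with at least 20 reads, 11.6% were past the fold upward and 7.88% downward, so the receptors' 14.8% and 3.70% are near the background.

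Olfr112 lay at 2.64, with 733 reads in the arthritis paw against 65 in the control paw, or 3.25 (2.88 to 3.64) without the pseudocount. It was picked as the highest ratio of the comparison, and the interval does not allow for that choice. Olfr30 lay at 1.40 (391 reads against 100), Olfr282 at 1.15 (222 against 62) and Olfr124 at 1.02 (122 against 30). Olfr151 lay at -4.89 or lower, with 119 reads in the arthritis paw against at least 4124 in the control paw. It was followed by Olfr325 at -0.79 (142 against 236), Olfr172 at -0.53 (91 against 129) and Olfr187 at -0.42 (138 against 170). Olfr78 held 435 reads in the arthritis paw against 459 in the control paw.

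In the embryo, H3K27me3 against H3K27ac sets a silencing mark against an active mark. The median over 83 receptors was -0.09 (-0.24 to 0.06), against -0.12 for all 18653 genes. The median receptor had 4 reads in either section, and the pseudocount shrinks the ratios of such genes. These medians therefore cannot show whether the receptors were richer or poorer in H3K27me3 than other genes. Among the 25 receptors with at least 20 reads over both sections, 6 were past the fold toward H3K27me3 and 7 toward H3K27ac. The shares over all genes with at least 20 reads were 14.3% and 17.3%. At this depth a receptor reaches 20 reads mostly through a section in which it is high, so the embryo's counts past the fold are descriptions and were read no further. Olfr374 stood at 5.28 (791 reads for H3K27me3 against 12 for H3K27ac), Olfr172 at 4.84 (345 against 6), Olfr108 at 2.63 (46 against 3) and Olfr186 at 1.85 (35 against 5).

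At the other end of the same comparison, Olfr115 stood at -4.10 (1 read for H3K27me3 against 60 for H3K27ac), and without the pseudocount the interval ran from -11.7 to -3.82. Olfr206 stood at -3.17 (1 against 30), Olfr58 at -2.65 (1 against 20) and Olfr392 at -2.48 (8 against 46). Without the pseudocount the counting intervals of these 4 receptors reach up to -1.88 at most. The 4 were picked as the lowest ratios of the comparison, and the intervals do not allow for that choice.

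Against H3K4me3, H3K27me3 had a median of 0.04 (-0.13 to 0.23) over 76 receptors, against 0.08 for all 17837 genes. Of 16 receptors with at least 20 reads, 7 were past the fold toward H3K27me3 (21% of all genes) and 2 toward H3K4me3 (13.3% of all genes). Olfr374 stood at 6.11 (791 reads against 4), Olfr172 at 5.17 (345 against 3), Olfr186 at 2.32 (35 against 2) and Olfr155 at 1.68 (21 against 2). Olfr53 stood at -2.83 (6 reads for H3K27me3 against 37 for H3K4me3), Olfr2 at -1.35 (22 against 34), Olfr20 at -0.99 (9 against 12) and Olfr283 at -0.61 (13 against 12).

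H3K27ac against H3K4me3 gave a median of 0.20 (0.08 to 0.35) over 77 receptors, the same as the 0.20 of all 17762 genes. Of 16 receptors with at least 20 reads, 8 were past the fold toward H3K27ac (23.3% of all genes) and 2 toward H3K4me3 (12.5% of all genes). Olfr115 stood at 3.84 (60 reads against 1), Olfr206 at 2.91 (30 against 1), Olfr392 at 2.54 (46 against 4) and Olfr58 at 2.39 (20 against 1). Olfr2 stood at -2.14 (8 reads for H3K27ac against 34 for H3K4me3), Olfr53 at -1.72 (13 against 37), Olfr287 at -0.78 (16 against 22) and Olfr20 at -0.45 (11 against 12).

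The 3 embryo comparisons share sections, so their values are not independent. For the 73 receptors with a row in all 3, the mean level was 0.593 of the section mean for H3K27me3, 0.293 for H3K27ac and 0.204 for H3K4me3. Without Olfr374 and Olfr172 it was 0.203, 0.293 and 0.205. These 2 genes were picked for their H3K27me3 reads, so a fall for that mark was fixed in advance. With each section's own 2 leading receptors left out, the means were 0.201 over 85 receptors, 0.216 over 88 and 0.158 over 78. Much of the H3K27me3 mean lay in Olfr374 and Olfr172.

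Adult brain against embryo, both for H3K4me3, gave a median of 0.73 (0.09 to 1.10) over 27 receptors, against 0.66 for all 11127 genes, and tissue, stage and depth cannot be told apart here. Past the fold were 8 receptors toward the brain (31.5% of all genes with at least 20 reads) and 1 toward the embryo (5.73%). Olfr57 stood at 2.13 (90 reads in the brain against 1 in the embryo), Olfr183 at 1.36 (62 against 2), Olfr44 at 1.34 (128 against 6) and Olfr392 at 1.26 (88 against 4). Olfr53 stood at -1.98 (48 against 37), Olfr2 at -0.96 (106 against 34), Olfr20 at -0.20 (66 against 12) and Olfr283 at -0.19 (67 against 12). Olfr53 and Olfr2 were the most H3K4me3-rich receptors of the embryo.

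**Figure D4:**
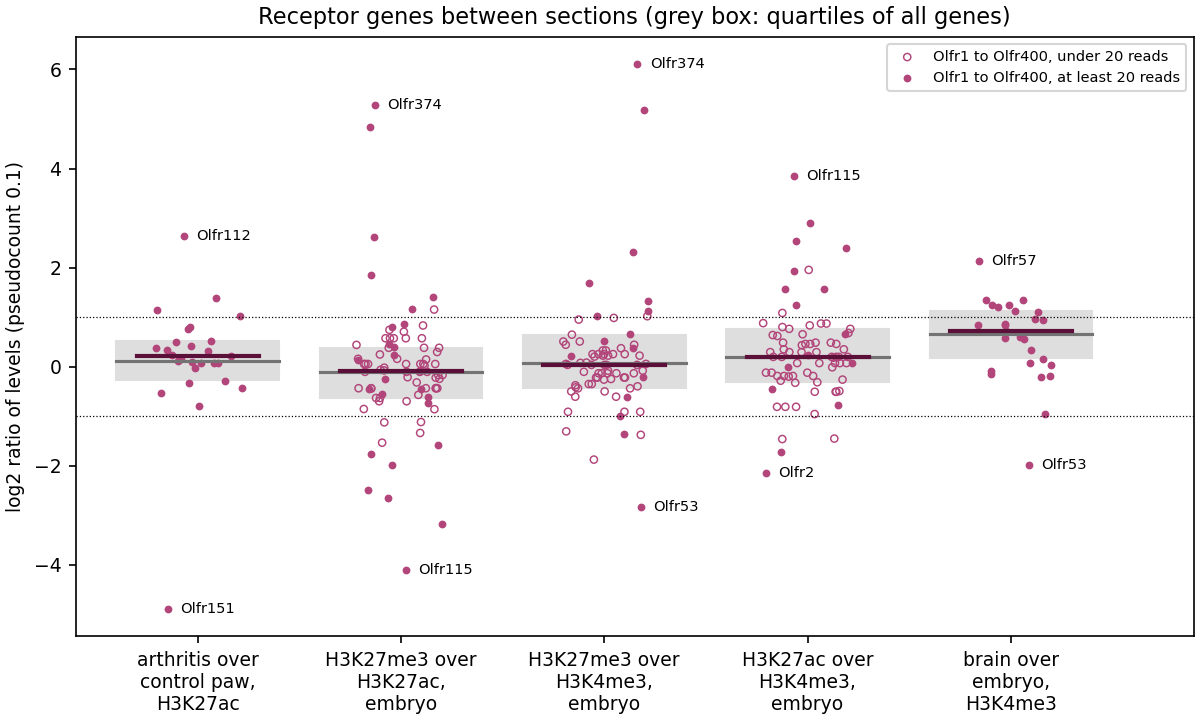
Log2 ratio of levels (pseudocount 0.1) of each receptor gene in 5 comparisons, with the receptors' medians as dark bars and the median and quartiles of all genes in grey. The receptors' medians of 0.21, -0.09, 0.04, 0.20 and 0.73 lie within the grey boxes, and single genes such as Olfr112, Olfr151, Olfr374 and Olfr115 lie far outside.

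Over the tissue, the receptors' reads followed the depth of the spots. Of every 10000 reads the receptors held 9.25 in the arthritis paw, 39.5 in the control paw, 9.97 in the brain, 24.1 for H3K27me3, 11.99 for H3K27ac and 8.58 for H3K4me3. These shares cover 27, 95, 29, 87, 90 and 80 genes and are not comparable between tables of different genes. Variance over spots was 1.02, 1.70, 1.02, 0.970, 0.993 and 1.11 times that of Poisson draws at the spot depths. The control paw was furthest from 1, and without Olfr154 its ratio was 1.20.

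In spots deeper than the section's median the receptors held 9.24 per 10000 reads in the arthritis paw, against 9.29 in the shallower spots. The values were 39.5 against 39.7 in the control paw (18.6 against 17.4 without Olfr154), 10.1 against 9.51 in the brain, 24.2 against 23.9 for H3K27me3, 12.4 against 11.2 for H3K27ac and 8.83 against 7.87 for H3K4me3. The share was thus higher in the deeper spots of the brain and the 3 embryo sections, by an amount that was not tested. The control paw had a pattern by array column. Of every 4 columns 1 was shallow (129 spots, median depth 4284 reads) and held 27.3 receptor reads per 10000, against 40.2 to 42.5 in the other columns. Without Olfr154 these values were 14.5 and 18.4 to 19.1. In the brain the columns alternated in depth, with medians of 2545 and 2705 reads in even columns and 571 and 618 in odd ones. The even columns held 10.3 and 9.86 receptor reads per 10000, against 9.66 and 9.32. Depth and column therefore cannot be told apart in the brain. Whether either column pattern is technical was not tested.

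The order of rows had a strong effect on the deposited values of these genes. The receptors stood late in the control paw's order, at a median place of 71.4% to 78.0% over the sections. In the deposited values their median percentile was 58.0 in the arthritis paw, 38.4 in the control paw, 39.7 in the brain, 34.4 for H3K27me3, 34.5 for H3K27ac and 32.2 for H3K4me3, which is well above the ranks by recovered reads. Among the receptors, Spearman's rho between deposited mean and place was 0.70 to 0.89 over the sections, and between recovered reads and place -0.08 to 0.20.

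Of the receptors' deposited values above 0, 78.2% to 90.2% belonged to a spot in which the gene had no recovered read, against 46.3% to 68.9% over all genes. Ranked only among the 500 genes nearest in the row order, the receptors' median percentile by deposited values was 23.6 in the arthritis paw, 14.8 in the control paw, 23.2 in the brain, and between 21.0 and 22.6 in the embryo. By recovered reads it was 24.0, 11.2, 20.6 and between 19.2 and 19.7 in the same order. With the order held, both kinds of value put the receptors low.

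**Figure D5:**
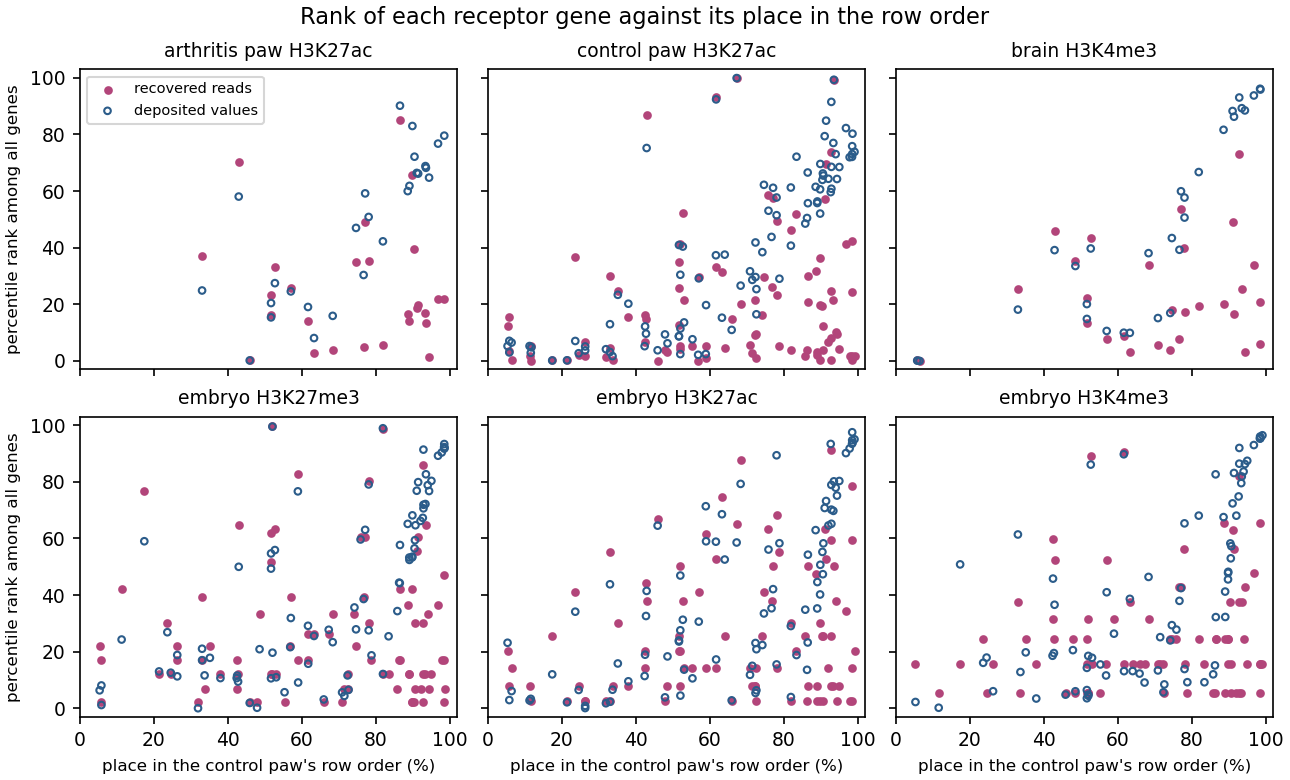
Percentile rank of each receptor gene among all genes of its section against its place in the control paw's row order (%), from recovered reads (filled) and from deposited values (open), in 6 panels. The open points climb toward the right in every panel (rho 0.70 to 0.89), while the filled ones keep no such trend (rho -0.08 to 0.20).

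Genes that serve the receptors in the nose were set beside them. Of 14 genes of olfactory signalling, 5 of the 9 listed in the arthritis paw exceeded the 90% point of the receptors' reads, 6 of 14 in the control paw, 5 of 12 in the brain, and 8, 4 and 8 of 14 for embryo H3K27me3, H3K27ac and H3K4me3. Over all genes 43.3%, 47.8%, 53.5%, 37.3%, 37.4% and 41.7% exceeded it. Gnal, the G protein subunit of olfactory transduction, which is also used in the striatum, led in the arthritis paw with 529 reads and for H3K27ac with 116 (percentile 96.3). Gfy led in the control paw with 1296, and Ano2, a chloride channel gene, in the brain with 373.

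Rtp1, which carries receptors to the cell surface, held 710 H3K27me3 reads in the embryo (percentile 99.5), against 11 for H3K27ac and 4 for H3K4me3. Cnga2, the channel subunit of olfactory transduction, held 123 H3K4me3 reads (percentile 97.6), against 25 for H3K27me3 and 15 for H3K27ac. The lowest of the list was Rtp1 in the arthritis paw (86 reads), Stoml3 in the control paw (52), Ric8b in the brain (38), for H3K27me3 (3) and for H3K27ac (3), and Cnga4 and Ric8b alike for H3K4me3 (1 each).

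As a check of the tissue, 6 markers of olfactory sensory neurons were summed: Omp, Gnal, Cnga2, Adcy3, Stoml3 and Rtp1. The section sums were 1037 reads over 4 listed genes in the arthritis paw, 1082 over 6 in the control paw, 652 over 5 in the brain, and 877, 162 and 188 over 6 for H3K27me3, H3K27ac and H3K4me3. Rtp1 alone held 710 of the 877, and Cnga2 held 123 of the 188. A sum for H3K27me3, a mark of silenced genes, cannot show that such cells were present. Omp, the classic marker of mature neurons, stood at percentile 56.0 in the control paw, 27.2 in the brain, 42.2 for H3K27me3, 41.2 for H3K27ac and 52.3 for H3K4me3. A whole embryo section can hold nasal epithelium, and the part of such cells in the receptors' reads was not tested. The neuron markers Snap25, Syt1 and Rbfox3 held 194 to 1252 reads in the arthritis paw, 270 to 1126 in the control paw, 121 to 748 in the brain, 15 to 88 for H3K27me3, 25 to 122 for H3K27ac and 14 to 51 for H3K4me3. Of the epidermis markers Krt5, Krt14 and Trp63, 2 had a row in the arthritis paw (142 and 3102 reads) and 1 in the brain (145 reads), and all 3 in the control paw (57 to 1435 reads) and the embryo (5 to 81 for H3K27me3, 6 to 139 for H3K27ac and 5 to 12 for H3K4me3). Fewer cells of a type and fewer reads per cell cannot be told apart in these spots.

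Among 12 regulators of receptor choice, Ldb1, the partner of Lhx2 at receptor enhancers, led in the control paw with 678 reads, in the brain with 420 and for embryo H3K27ac with 68. Emx2, a homeobox gene, led for H3K27me3 with 142 (percentile 95.8) and for H3K4me3 with 35, and Ddit3, a stress-response factor, in the arthritis paw with 2084. The lowest were Bptf in the arthritis paw (213), Kdm1a, the demethylase that opens receptor choice, in the control paw (88), the brain (41) and for H3K27me3 (5), Ebf2 and Ebf4 alike for H3K27ac (4 each), and Atf5, Ebf2, Ebf4 and Kdm1a alike for H3K4me3 (3 each). Above the receptors' 90% point were 6 of 8 in the arthritis paw, 9 of 12 in the control paw, 5 of 10 in the brain, and 7, 7 and 8 of 12 for H3K27me3, H3K27ac and H3K4me3.

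Of the 11 genes of constitutive heterochromatin, 1 of 5 was above that point in the arthritis paw, 5 of 9 in the control paw, 3 of 4 in the brain, and 4, 5 and 4 of 9 for H3K27me3, H3K27ac and H3K4me3. Cbx5, which encodes a reader of H3K9me3, led with 799 reads in the arthritis paw, 375 in the brain, 49 for H3K27ac and 113 for H3K4me3 (percentile 97.3). Ehmt2, an H3K9 methyltransferase gene, led with 564 in the control paw and 79 for H3K27me3. The lowest were Suv39h1 in the arthritis paw (163), Suv39h2 in the control paw (50) and for H3K27ac (2), Cbx3 in the brain (88), Ehmt1 for H3K27me3 (3), and Ehmt1 and Suv39h1 alike for H3K4me3 (2 each).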

How the data were processed

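The submitters' processing notes name the tools Bowtie2, featureCounts, MACS2 and the builds hg19 and mm9, without versions or roles. The authors deposited a signal for each gene in each spot. In the files the 500 highest values of any spot equal a common list times 1 factor per spot, that is, quantile normalisation. Reads were recovered from the falls in row order within tied ranks (Python 3.11.15, numpy 2.4.6) and made up 92.9% to 95.4% of the common list's total. Summed over spots, recovered counts equalled the list at 99.1% of its ranks in the arthritis paw and 98.8% in the control paw. The share was 37.4% in the brain, 51.6% for embryo H3K27me3, 50.8% for H3K27ac and 51.2% for H3K4me3. Recovery was thus less exact outside the paws. Sums with over 10% of reads from counts that fewer than 5 genes shared are lower bounds. The recovery was tested on simulated data, with the outcome not given here.

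Levels are reads over spots divided by the section mean over genes. Ratios use a pseudocount of 0.1 and the mean over genes held by both sections, and the fold is a log2 ratio past 1 among genes with at least 20 reads. Chromosomes and gene neighbours come from RefSeq GRCm38.p6, which matched all 95 receptors by symbol. The receptors and lists were chosen with earlier results of these data known. Named receptors are the 5 with the most reads per section, the 4 highest and 4 lowest ratios per comparison among those with at least 20 reads, one at or nearest each median, and 9 studied elsewhere. Alternatives were deposited values, subsets of spots, genes or receptors, pseudocount and centre. Values without the factor per spot, without the 2 leading receptors, or with unlisted embryo receptors at 0 were chosen after seeing the data.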

Additional observations from a re-analysis of the deposited data

How the results depend on the processing

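No paired analysis was possible because each group has 1 section. The median rank of the receptors in a section stayed within its interval under every alternative except those given here. Deposited values gave median percentiles of 58.0 in the arthritis paw, 38.4 in the control paw, 39.7 in the brain, 34.4 for embryo H3K27me3, 34.5 for H3K27ac and 32.2 for H3K4me3. Deposited values without the factor per spot, an alternative chosen after seeing the data, gave 57.7, 33.8, 38.6, 32.4, 36.6 and 29.9. With genes under 10 reads left out, the median was 36.2 for H3K27me3 and 29.1 for H3K27ac, and with odd columns alone 29.4 for H3K4me3. Spearman's rho between level and row order over all genes was 0.436, 0.423, 0.584, 0.356, 0.330 and 0.348 in the deposited values, against -0.100, -0.103, -0.108, -0.079, -0.062 and -0.059 in recovered reads.

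The median log2 ratio between the paws was 0.059 with a pseudocount of 1. For H3K27me3 over H3K27ac it was 0.13 without genes under 10 reads. For H3K27me3 over H3K4me3 it was -0.21 without those genes and 0.31 in deposited values. For H3K27ac over H3K4me3 it was 0.029 with a pseudocount of 1, and turned negative with odd columns alone (-0.057) and without genes under 10 reads (-0.29). For the brain over the embryo it turned to -0.011 without those genes. A filter on low reads keeps a receptor only where it is high. The cause of the other shifts was not tested.

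Counts past the fold ranged, over alternatives that keep the fold and the receptors, from 1 to 4 higher and 0 to 1 lower between the paws, 2 to 8 and 0 to 8 for H3K27me3 over H3K27ac, 0 to 8 and 1 to 3 for H3K27me3 over H3K4me3, 0 to 9 and 0 to 3 for H3K27ac over H3K4me3, and 0 to 13 and 0 to 2 for the brain over the embryo. Most of the lowest counts came without genes under 10 reads or with a pseudocount of 1. The 0 lower between the paws came without sums that are lower bounds, which takes out Olfr151. Depth limits the embryo most, where the median receptor has 2 to 4 reads.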

Other observations

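Levels differed somewhat between chromosomes, compared where at least 5 receptors had a row. In the control paw the 5 receptors on chromosome 15 had 62 to 271 reads with a median of 114, and the 15 on chromosome 7 a median of 72. The 16 receptors on chromosome 17 had 10 to 88 reads with a median of 31.5, and the 10 on chromosome 16 a median of 33 in spite of Olfr175. For embryo H3K27me3 the 5 receptors on chromosome 15 had a median of 10 reads, against 4 to 4.5 on chromosomes 7, 9, 11, 16 and 17. The groups overlap in both sections, and no test was made.

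The likeness of receptor ranks between sections varied widely over the 15 pairs of sections. Over receptors with rows in both, Spearman's rho was lowest between the arthritis paw and embryo H3K27ac (-0.12, 26 receptors) and highest between the brain and embryo H3K27me3 (0.68, 28 receptors). It was 0.33 between the arthritis and control paws (27) and 0.12 between the arthritis paw and embryo H3K4me3 (27). It was 0.57 between embryo H3K27me3 and the control paw (87 receptors), 0.52 between embryo H3K27ac and the control paw (90) and 0.63 between embryo H3K4me3 and the control paw (80). Over the 20 receptors with rows in all 6 sections the last 3 values were 0.77, 0.07 and 0.29. The points share gene lengths and, through the tables' gene lists, the selection by reads, and the values are descriptions. Olfr287 stood above the section's median gene in all 5 sections in which it had a row. Olfr78, Olfr187, Olfr325 and Olfr44 stood above the section's median gene in 4 of 6 sections, while Olfr310, with rows in all 6, stayed between percentile 1.38 and 42.9.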
